A study of Homo sapiens with 31 samples.

Results

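RNA sequencing at steady state compared PANC-1 cells whose genotype is labelled KHSRP knockout (KO, 3 libraries) with PANC-1 cells labelled NC, of wild-type genotype (3 libraries). These 6 libraries were chosen by their titles and are 6 of the 31 samples of the series. PANC-1 is an established human pancreatic cancer cell line of ductal origin. Both groups were labelled as polyA RNA, with no drug treatment in their labels; no label names the guide or says whether the knockout line is 1 clone. The other samples map crosslinks of KHSRP and of m6A or follow RNA after actinomycin D, and of these only the 4 libraries labelled 0 h were used, for a side comparison. The design text gives the mechanism by which KHSRP acts in tumour progression as the question behind this RNA sequencing. Nothing in the labels says that the replicates were grown apart, and every p-value here reflects library-to-library spread alone, perhaps a technical one.

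KHSRP, the KH-type splicing regulatory protein, is a single-stranded RNA-binding protein. It is known to bind AU-rich elements in messenger RNA and recruit the deadenylation and exosome machinery, and it also takes part in splicing and in the processing of some microRNA precursors. Loss of such a factor can be followed at the level of its targets, of the pathways they sit in, and of the transcript forms each gene makes.

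KHSRP, on chromosome 19 (hg19 chr19:6413113-6424822, minus strand), had 10.6, 9.88 and 9.49 CPM in the KO libraries, against 64.4, 65.6 and 64.9 CPM in the NC libraries. The KO libraries lay far below the NC libraries with no overlap, and the log2 change was -2.70 without and -2.71 with adjustment for transcript length (SE 0.09, edgeR quasi-likelihood adjusted p = 6.14e-09). CPM, the gene's count scaled to library size, is given after TMM scaling except for the cell type markers, and an adjusted p under 0.05 is called. Without length adjustment, 8726 of 17240 genes tested (50.6%) were called, 4198 (24.4%) higher in KO and 4528 (26.3%) lower; 1.24% were called higher and 9.3% lower with a log2 change of at least 1. With length adjustment, 8978 (52.1%) were called, 5149 (29.9%) higher and 3829 (22.2%) lower, and 2.16% and 6.19% with a change of at least 1. The KO libraries all lay above NC in 30.4% of genes and all below in 29.6%, before any test. When the length curve was replaced by medians in 50 length bins, the calls were 3900 higher and 4405 lower. The median log2 change over all genes was 0.02 without adjustment, 0.10 with the curve and -0.00404 with the bins. Adjusted list medians stand beside 0.10 for all genes. Calls in both fits numbered 4025 higher (23.3%) and 3719 lower (21.6%).

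Library depth was 33706181 to 43278138 counts. The libraries differed in how their counts depended on transcript length. The fitted level of 1 kb transcripts minus that of 5 kb transcripts, on the log2 scale, was 0.13, 0.29 and 0.26 in the KO libraries and -0.25, -0.16 and -0.26 in the NC libraries. KO replicate 1 lay nearest to NC. Small structural RNAs took 11.4 to 14.2% of counts in KO and 15.4 to 15.8% in NC. Marker levels are CPM without TMM scaling. The ductal keratins KRT8, KRT18 and KRT19 were high in all libraries (KRT8 had 4244 to 5038 CPM in KO libraries, against 4916 to 5437 CPM in NC). KRT7, also a ductal keratin, was low, with 4.86 to 5.50 CPM in KO libraries, against 3.34 to 4.28 CPM in NC. The epithelial marker EPCAM had 1.29 to 2.37 CPM in KO libraries, against 2.49 to 3.35 CPM in NC. The ductal marker SOX9 had 50.2 to 56.6 CPM in KO libraries, against 70.2 to 75.1 CPM in NC. In both fits SOX9 was called lower (-0.53 without and -0.24 with adjustment), EPCAM lower and KRT7 higher. Of 6 acinar and 5 endocrine markers none passed the count filter. Of 6 immune markers 2 passed; their sum was 96.2 to 122 CPM in KO and 62.5 to 65.4 in NC, nearly all of it CD68, with PTPRC at 2 to 5 counts per library. Among 7 fibroblast markers 3 passed. COL3A1 had 220 to 333 counts per library, COL1A1 79 to 158 and PDGFRB 31 to 89, while COL1A2 had 0 in every library. Among 5 endothelial markers 2 passed, KDR with 83 to 167 counts and PECAM1 with 6 to 23. With length adjustment COL1A1, PDGFRB and KDR were called higher in KO, by log2 changes of 0.70, 1.18 and 0.78. COL3A1 and PECAM1 were not called. Without adjustment COL1A1 (0.58) and PDGFRB (0.99) were called higher and COL3A1 lower (-0.29), while KDR (0.32) and PECAM1 (0.77) were not called. The part of other cells in any result was not tested.

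Longer transcripts were lower in KO, and after the adjustment most of that trend was gone. When the 17240 genes were put into 5 groups of 3448 by length, the median log2 change in the shortest group was 0.14 without and 0.09 with adjustment. In the longest group it was -0.36 without and 0.03 with adjustment, and the share called lower dropped to 32.5% with adjustment, against 49.4% without. Adjustment added 1103 genes to the higher calls that had not been called and took 788 genes out of the lower calls. A further 21 genes called lower without adjustment were called higher with it. Gene span, the distance from gene start to gene end in hg19 as given in the deposited 0 h tables, kept a trend after the adjustment. It was known for 14004 of the tested genes (81.2%), which were put into 5 groups by span. The adjusted median was 0.18 in the group with the shortest spans (up to 7626 bases) and -0.13 in the group with the longest (from 82806 bases), with 11.1% and 36.95% called lower. Medians per library, here and below, are of log2(CPM + 2) relative to the NC mean after length adjustment, a scale on which changes of low genes are smaller than in the fit. In the shortest-span group they were 0.07, 0.14 and 0.13 in KO libraries, against -0.0048, 0.02 and -0.02 in NC libraries. In the longest-span group they were -0.03, -0.04 and -0.05 in KO libraries, against 0.01, -0.02 and 0.0035 in NC libraries. The order held inside each of the 5 groups of transcript length: genes of the longest spans had medians of -0.14 to -0.08, and genes of the shortest spans 0.14 to 0.27. Promoter composition moved with the change as well. Among 10852 protein-coding genes with a RefSeq promoter (81.6% of those tested), 26.3% of the group with the lowest GC content were called higher and 29.3% lower, while in the group with the highest GC content 44.4% were called higher and 16.03% lower. Span, length and GC content are related between genes, and which of them the change follows was not tested.

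**Figure D1:**
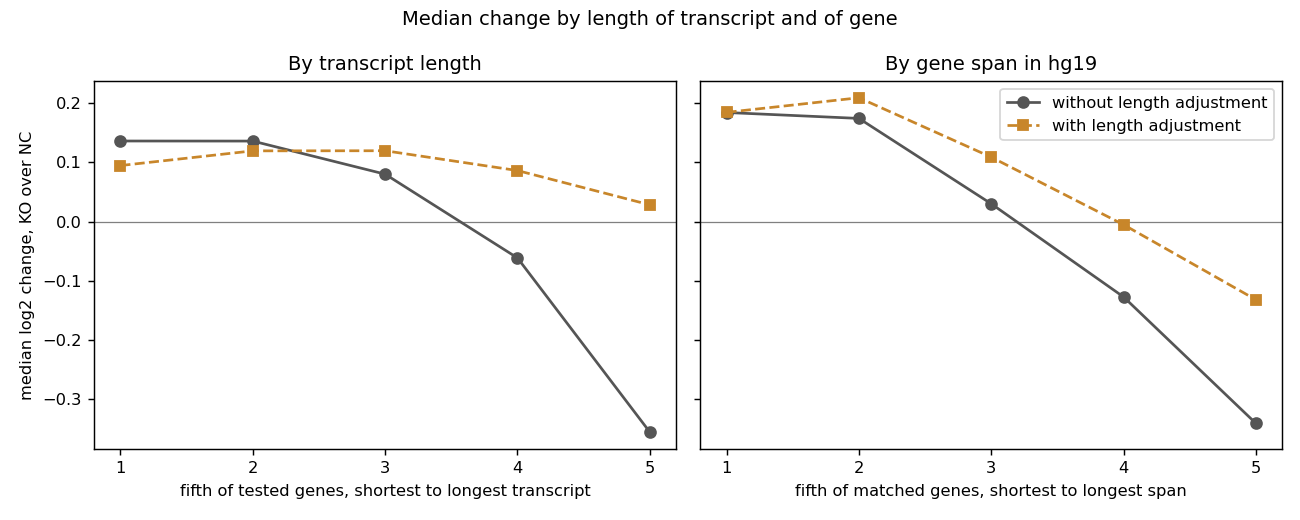
Median log2 change of KO over NC in 5 equal groups of genes ordered by transcript length (left, 3448 genes each) and by gene span (right, about 2801 genes each), without (circles) and with (squares) length adjustment. With adjustment the medians by length lie between 0.03 and 0.12, while those by span still run down to -0.13.

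The genes named first were the 15 furthest apart in each direction by the smaller of the 2 fits' log2 changes, with at least 10 CPM on average and no overlap between groups. LIPG, a secreted lipase of the endothelial type, had 34.3, 40.4 and 40.6 CPM in the KO libraries, against 12.2, 11.8 and 11.1 CPM in the NC libraries. All KO libraries lay above NC, and the log2 change was 1.98 with adjustment (SE 0.11, adjusted p = 8.87e-07) and 1.71 without. AURKB, the kinase of the chromosomal passenger complex, had 63.1, 67.7 and 69.7 CPM in the KO libraries, against 30.2, 30.8 and 28.1 CPM in the NC libraries, a log2 change of 1.12 (SE 0.08). The groups were far apart and tight. KLHDC3, a substrate receptor of a CUL2 ubiquitin ligase, had 117, 120.4 and 121 CPM in the KO libraries, against 53.9, 58.2 and 53.9 CPM in the NC libraries (1.13, SE 0.08). FHL1, a LIM domain protein of the cytoskeleton, had 449, 488 and 490.4 CPM in the KO libraries, against 229, 229 and 229 CPM in the NC libraries (1.12, SE 0.08). In both genes every KO library lay above every NC library. The PHD finger gene PHF7 rose by a log2 change of 1.33, the DNA-binding gene ARID3B by 1.39 and the small MAF factor gene MAFF by 1.15. H2BC18, PRSS3 and the U3 snoRNA gene SNORD3B-2, with adjusted log2 changes of 1.65, 1.46 and 1.10, have close copies with which reads may be shared, so their values are uncertain, and SNORD3B-2 was not called with offsets for the deposited effective lengths (0.36, adjusted p = 0.0677). Another 2 of the 15 have no name in the reference table used here.

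Among the genes that fell, TGFBR1, a TGF-beta receptor of type I, had 15.8, 13.98 and 14.8 CPM in the KO libraries, against 70.4, 70.8 and 74.8 CPM in the NC libraries. The KO libraries lay far below NC. Its mean transcript length was 6162 bases, and the log2 change was -1.80 with adjustment (SE 0.08, adjusted p = 2.26e-07) and -2.28 without. OLR1, the lectin-like receptor of oxidised LDL, had 4.33, 4.17 and 4.74 CPM in the KO libraries, against 17.2, 16.8 and 16.7 CPM in the NC libraries (-1.88, SE 0.10). VPS41, a subunit of the HOPS complex that tethers endosomes to lysosomes, had 14.4, 10.5 and 9.88 CPM in the KO libraries, against 44.5, 41.2 and 46.7 CPM in the NC libraries (-1.70, SE 0.11). In all 3 genes the groups did not overlap. UBE2K, a ubiquitin-conjugating enzyme, had 11.7, 11.95 and 9.23 CPM in the KO libraries, against 33.3, 30.2 and 38.8 CPM in the NC libraries (-1.63, SE 0.13), but its log2 change was -0.40 and not called (adjusted p = 0.0506) when counts were offset by the deposited effective lengths. The nuclear long non-coding RNA MALAT1 had 2573, 1890.2 and 1946 CPM in the KO libraries, against 6859, 6023 and 7526 CPM in the NC libraries (-1.72, SE 0.12). Its KO libraries all lay under those of NC by more than the spread within either group. TBC1D8B, a GTPase-activating protein for RABs, fell by 1.68 on the log2 scale with adjustment, and the vesicle transport gene SFT2D2 by 1.64. HNRNPA3 (-1.62) and the zinc finger gene ZNF780A (-1.72) have near copies elsewhere in the genome, so their values are uncertain. The mitochondrial complex I subunit gene MT-ND4 and 4 unnamed identifiers completed the 15 with KHSRP.

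**Figure D2:**
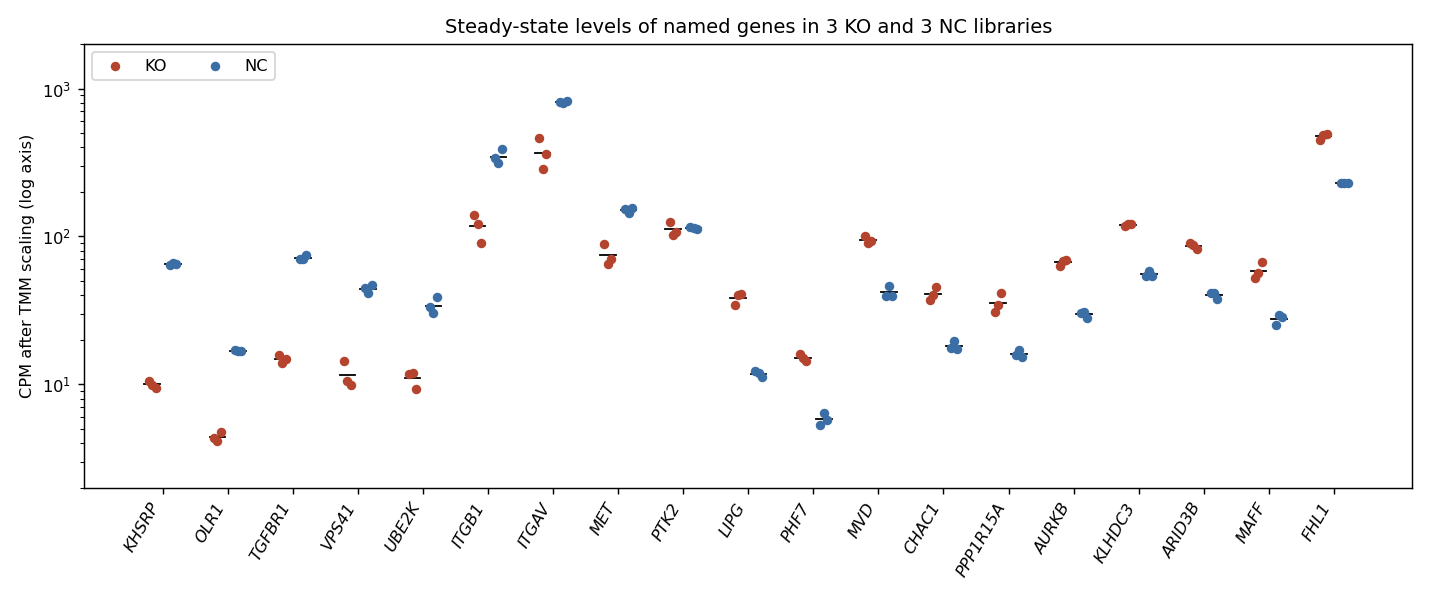
CPM after TMM scaling (log axis) of KHSRP, the genes of the study's title and design, and named genes that changed, with 3 KO libraries (left of each pair) and 3 NC libraries (right); bars are means. All pairs are apart except PTK2, where the groups overlap.

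Most genes of sterol synthesis were higher in KO. Of 22 tested genes of cholesterol synthesis, 17 were higher and 1 lower with adjustment (17 and 2 without), with a median log2 change of 0.69. Between 16 and 17 members were called higher under every alternative setting. Per library, the members' median relative to NC was 0.75, 0.63 and 0.64 in KO and 0.001, 0.0045 and -0.0044 in NC. LSS, which closes the sterol ring as lanosterol synthase, had 183, 169 and 176 CPM in the KO libraries, against 82.4, 94.7 and 82.7 CPM in the NC libraries. The groups were apart, with a log2 change of 1.36 (SE 0.09, adjusted p = 1.93e-06). MVD, the decarboxylase that makes isopentenyl diphosphate, had 100.3, 89.99 and 93.3 CPM in the KO libraries, against 39.8, 46.4 and 39.3 CPM in the NC libraries (1.17, SE 0.09). DHCR7, the reductase of the last step, had 196, 192 and 198 CPM in the KO libraries, against 105, 105 and 103 CPM in the NC libraries (0.98, SE 0.07). Neither gene overlapped between groups, and the NC libraries lay close together. HMGCS1, which makes the HMG-CoA that feeds the pathway, had 134, 90.5 and 98.3 CPM in the KO libraries, against 61.01, 63.5 and 61.1 CPM in the NC libraries (0.95, SE 0.11), with KO replicate 1 the highest. SQLE, the squalene epoxidase, rose by 0.80. GGPS1, which draws the intermediate farnesyl diphosphate off towards protein prenylation, was the 1 gene to fall (-0.56; LBR, at -0.28, also fell without adjustment), while TM7SF2, NSDHL, SC5D and LBR were not called (0.04, -0.07, -0.13 and -0.06).

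In the list of SREBP control and sterol transport 8 of 16 members were higher and 5 lower with adjustment (7 and 5 without). SREBF2, the transcription factor of sterol genes, had 200.048, 204 and 217 CPM in the KO libraries, against 144, 157 and 141 CPM in the NC libraries. It was higher in every KO library, by a log2 change of 0.89 with adjustment (SE 0.10) and 0.49 without. INSIG2, one of 2 proteins that hold SREBP in the endoplasmic reticulum, had 4.36, 3.61 and 4.05 CPM in the KO libraries, against 10.5, 9.08 and 12.2 CPM in the NC libraries (-1.34, SE 0.14). All KO libraries of INSIG2 lay below NC. The other retention protein, INSIG1, rose (0.78), as did SCAP, the escort of SREBP (0.73). MBTPS2, the site-2 protease that releases SREBP, fell (-0.85), and so did the cholesterol exporters ABCA1 (-0.62) and ABCG1 (-0.72). SREBF1, at -0.15, was not called. In fatty acid and glycerolipid synthesis 9 of 20 were higher and 4 lower (7 and 7 without adjustment, and 7 lower without KO replicate 1). FASN, the fatty acid synthase, had 624, 635 and 567 CPM in the KO libraries, against 364, 390.1 and 385 CPM in the NC libraries (1.09, SE 0.08). ACSL3, an acyl-CoA synthetase of lipid droplets, had 50.9, 32.4 and 42.1 CPM in the KO libraries, against 98.9, 96.01 and 105 CPM in the NC libraries (-1.11, SE 0.12). These 2 enzymes moved in opposite directions with no overlap.

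The promoter of SREBF2 is shown because it was the only promoter of the 2 sterol lists that held the sterol element TCACNCCAC on either strand. Promoters are from RefSeq (GRCh38.p14), 250 bases before to 50 after the gene start; 17 of the 22 cholesterol genes and 14 of the 16 control genes had one. The element is in 1.13% of the 35116 promoters of that table. The match, in capitals, begins 133 bases before the start, in chr22:41832855-41833154, plus strand. A match is a description of letters and not a mapped site.
SREBF2 promoter: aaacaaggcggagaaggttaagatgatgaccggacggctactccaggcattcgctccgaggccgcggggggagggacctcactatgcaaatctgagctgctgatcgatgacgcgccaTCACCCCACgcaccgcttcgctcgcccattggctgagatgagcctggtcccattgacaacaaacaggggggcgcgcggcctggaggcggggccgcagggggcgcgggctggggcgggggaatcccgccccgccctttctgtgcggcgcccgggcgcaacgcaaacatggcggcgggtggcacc

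Genes of the amino acid response, which the factor ATF4 is known to drive when amino acids run short or the kinases of eIF2 are active, were called in 1 direction with adjustment. Of 30 tested, 19 were higher and 0 lower with adjustment (17 and 1 without), with a median log2 change of 0.43. The per-library medians relative to NC were 0.35, 0.44 and 0.50 in KO and -0.02, 0.06 and -0.04 in NC. At an unadjusted p under 0.05 edgeR gave 0 lower, and the DESeq2 test with length adjustment gave 0. CHAC1, which degrades glutathione, had 37.4, 39.9 and 45.2 CPM in the KO libraries, against 17.5, 19.6 and 17.2 CPM in the NC libraries. Every KO library exceeded every NC library, with a log2 change of 1.16 (SE 0.10, adjusted p = 4.59e-06). PPP1R15A, which brings a phosphatase to eIF2 and so ends the response, had 30.7, 34.3 and 41.5 CPM in the KO libraries, against 15.8, 17.05 and 15.4 CPM in the NC libraries (1.19, SE 0.12). SESN2, a stress sensor upstream of mTORC1, had 58.2, 68.9 and 67.3 CPM in the KO libraries, against 36.1, 36.2 and 32.6 CPM in the NC libraries (1.11, SE 0.11). No KO library of either gene reached down to NC. The amino acid transporters SLC7A5 (1.09), SLC1A4 (1.02), SLC7A1 (0.87) and SLC1A5 (0.62) rose, as did TRIB3, a pseudokinase (0.80), ASNS, the asparagine synthetase (0.40), and ATF4 itself (0.54). The cystine transporter gene SLC7A11 stood at -0.10, not called, against -0.69 without adjustment. Of 20 cytosolic tRNA synthetases 9 were higher and 2 lower (6 lower without KO replicate 1), led by VARS1 (0.99) and YARS1 (0.70). The chaperones and sensors of the endoplasmic reticulum did not share this direction. There 5 of 24 were higher and 7 lower with adjustment (2 and 11 without), beside 29.9% and 22.2% of all genes. The chaperone genes HSP90B1 (-1.09) and DNAJB9 (-1.18) were lower. With adjustment the higher members numbered 9 without KO replicate 1, 2 without KO replicate 3 or NC replicate 3, and 3 without NC replicate 1.

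CHAC1 was the 1 member of that list whose promoter held the ATF4 element TGATGCAA on either strand, of 25 with a promoter; 0.866% of all promoters in the table hold it. The match, on the minus strand and in capitals, begins 209 bases before the start (chr15:40953221-40953520, plus strand).
CHAC1 promoter: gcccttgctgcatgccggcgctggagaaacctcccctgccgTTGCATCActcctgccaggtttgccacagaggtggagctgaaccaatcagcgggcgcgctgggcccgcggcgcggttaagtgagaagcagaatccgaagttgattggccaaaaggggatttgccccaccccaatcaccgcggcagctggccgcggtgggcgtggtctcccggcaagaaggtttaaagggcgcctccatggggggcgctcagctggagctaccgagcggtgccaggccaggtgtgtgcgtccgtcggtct

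**Figure D3:**
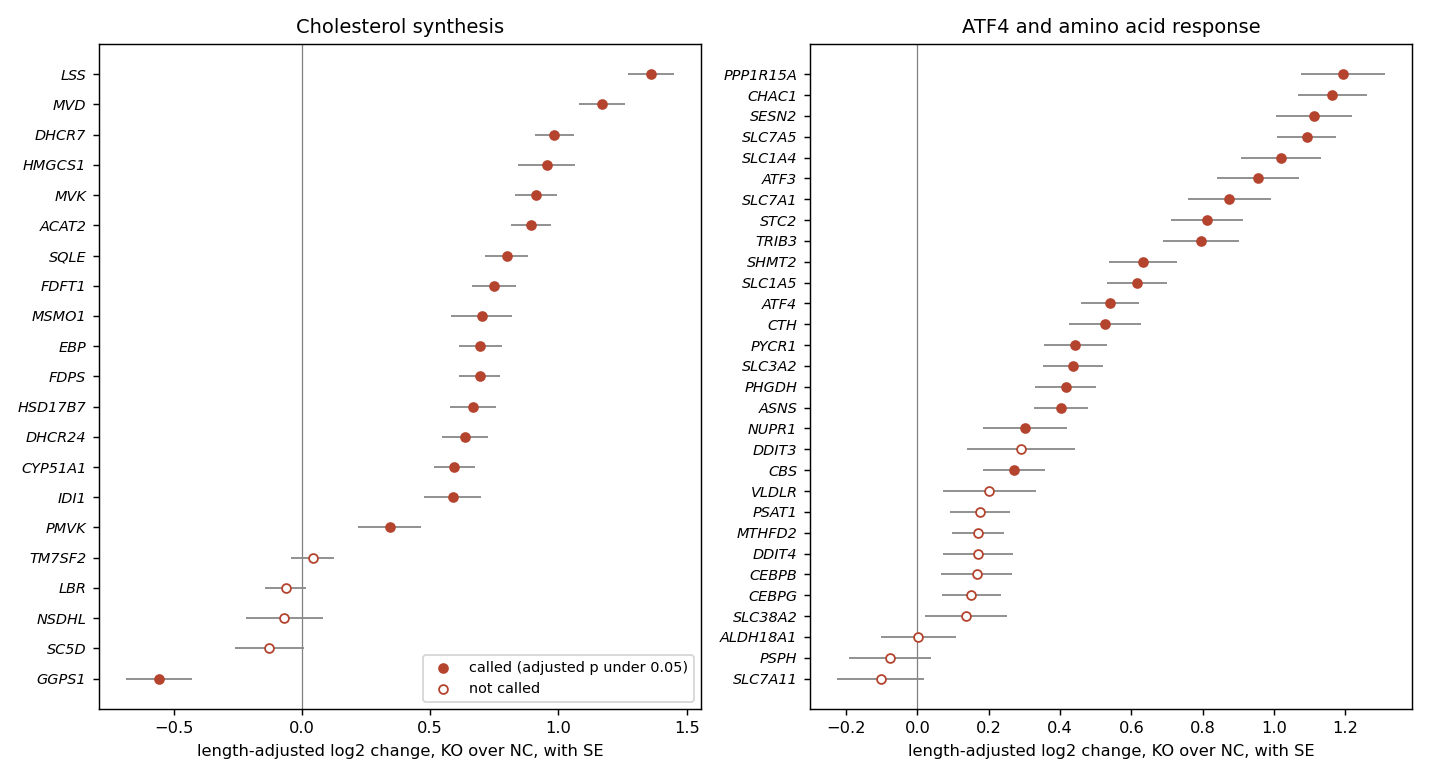
Length-adjusted log2 change of KO over NC with its SE for 21 of the 22 tested genes of cholesterol synthesis (left) and all 30 of the amino acid response (right); filled points were called. In the left panel 16 of the genes drawn lie above 0 and are called and only GGPS1 is called below it; in the right panel 19 are called, all above 0.

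Early-response transcripts with AU-rich elements, the class that KHSRP is known to bind, were higher in 19 of 31 cases and lower in 0 with adjustment, and in 16 and 2 without, with a median of 0.39. At an unadjusted p under 0.05 edgeR gave 0 lower, and the DESeq2 test with adjustment gave 17 higher and 0 lower. The per-library medians were 0.25, 0.42 and 0.36 in KO and 0.01, 0.04 and -0.01 in NC. DUSP5, a phosphatase of ERK, had 171, 198 and 216 CPM in the KO libraries, against 102, 110.006 and 93.6 CPM in the NC libraries. The groups were apart by more than their spread (1.02, SE 0.11). ATF3, a stress-induced factor, had 21.3, 25.6 and 26.6 CPM in the KO libraries, against 13.9, 13.2 and 11.4 CPM in the NC libraries (0.95, SE 0.12). FOSL2, a FOS family member, had 55.7, 58.2 and 59.9 CPM in the KO libraries, against 44.2, 45.4 and 44.1 CPM in the NC libraries (0.88, SE 0.10). Each of these genes was higher in all KO libraries; ATF3 stands on the amino acid response list as well. JUN (0.78), MYC (0.55), AREG (0.87), PLAUR (0.62) and VEGFA (0.33) also rose, and FOS, JUNB, DUSP1 and MCL1 were not called (0.51, 0.01, 0.18 and -0.07). Chemokines and genes of NF-kappaB feedback, many of which also carry AU-rich elements, were more often lower. With adjustment 7 of 27 were higher and 11 lower (6 and 12 without), with a median of -0.16. CCL5, a chemokine for T cells and monocytes, had 0.602, 0.683 and 0.829 CPM in the KO libraries, against 5.92, 6.94 and 7.65 CPM in the NC libraries. The groups were far apart (-3.30, SE 0.18, adjusted p = 8.87e-07). CCL20, the ligand of CCR6, had 2.38, 2.37 and 2.05 CPM in the KO libraries, against 9.95, 8.25 and 10.8 CPM in the NC libraries (-2.15, SE 0.15), and CXCL8, which attracts neutrophils, had 15.9, 11.8 and 9.42 CPM in the KO libraries, against 32.9, 28.01 and 28.8 CPM in the NC libraries (-1.28, SE 0.15). All 3 were lower in each KO library. Of 35 interferon-stimulated genes 3 were higher and 14 lower with adjustment (3 and 17 without), beside 29.9% and 22.2% of all genes. TRIM22 (-1.56) and IFIT3 (-1.24), both under 3 CPM on average, fell. OAS3 rose (1.11), with a mean of 56.9 CPM in KO and 34.4 CPM in NC. With adjustment the higher members numbered 8 without KO replicate 1 and 1 without KO replicate 3, NC replicate 1 or NC replicate 3.

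Of 20 other genes for proteins that bind AU-rich elements, 12 were lower and 3 higher with adjustment (13 and 1 without), beside 22.2% and 29.9% of all genes, with a median of -0.30; the higher members numbered 5 without KO replicate 1 and 1 without NC replicate 1. TIA1, a translational silencer of stress granules, had 33.4, 24.9 and 27.9 CPM in the KO libraries, against 86.1, 84.6 and 88.3 CPM in the NC libraries. No KO library reached the NC range (-1.56, SE 0.10). RC3H2, the paralog of roquin, had 51.4, 37.7 and 45.6 CPM in the KO libraries, against 137, 130.2 and 141 CPM in the NC libraries (-1.27, SE 0.09). HNRNPA2B1, a nuclear ribonucleoprotein, had 54.2, 49.4 and 46.2 CPM in the KO libraries, against 121, 108 and 131 CPM in the NC libraries (-1.15, SE 0.09). Both were lower without overlap. HNRNPD, also called AUF1, fell too (-0.61), as did the KHSRP paralog FUBP1 (-0.77), whereas ELAVL1, the stabilising factor HuR (0.25), and PCBP1 (0.42) rose. In the machinery of deadenylation, decapping and the exosome 15 of 49 were higher and 18 lower (13 and 19 without adjustment). DDX6, a helicase of P-bodies, had 57.5, 39.98 and 34.8 CPM in the KO libraries, against 136, 126 and 151 CPM in the NC libraries (-1.31, SE 0.13), and UPF1, the helicase of nonsense-mediated decay, had 18.4, 20.6 and 21.9 CPM in the KO libraries, against 12.3, 11.3 and 12.1 CPM in the NC libraries (1.08, SE 0.11). DDX6 fell and UPF1 rose, each with the groups apart. Of 23 genes that write, erase or read m6A, 6 were higher and 11 lower with adjustment (4 and 12 without). The lower count with adjustment was 6 without KO replicate 3 and 7 without NC replicate 3. FMR1, an RNA-binding reader, fell by 1.59 and ZC3H13, of the writer complex, by 1.45, while RBM15B, another part of it, rose (0.99). In microRNA processing 6 of 17 were higher and 7 lower with adjustment (3 and 8 without). Some calls depended on length: AGO1 was at 0.16 and not called without adjustment but 0.81 and called with it. DICER1, which cuts microRNA precursors, had 58.7, 42.5 and 43.8 CPM in the KO libraries, against 143, 124 and 138 CPM in the NC libraries (-0.92, SE 0.09; -1.48 without adjustment).

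Most mitotic genes tested were higher in KO and most centrosomal genes lower. Of 32 mitotic kinases, cyclins and spindle genes 20 were higher and 3 lower (19 and 3 without adjustment), with a median of 0.48 in both fits; without KO replicate 1, 20 were higher and 6 lower. The per-library medians were 0.52, 0.45 and 0.50 in KO and 0.03, -0.02 and -0.0037 in NC. ESPL1, the protease separase, had 86.8, 94.5 and 88.9 CPM in the KO libraries, against 52.8, 49.4 and 49.4 CPM in the NC libraries. All KO libraries were higher (1.19, SE 0.09, adjusted p = 3.35e-06). CDC20, the activator of the anaphase-promoting complex, had 316, 309 and 309.962 CPM in the KO libraries, against 158, 176 and 157 CPM in the NC libraries (0.92, SE 0.08). CDC25C, the phosphatase that activates CDK1, had 65.7, 63.2 and 66.5 CPM in the KO libraries, against 34.7, 33.1 and 34.2 CPM in the NC libraries (0.96, SE 0.08). In both genes the KO libraries all exceeded NC. PLK1 (0.85), BIRC5 (0.85) and KIF20A (0.83) rose, the motor KIF11 (-0.61), the exchange factor ECT2 (-0.51) and the topoisomerase TOP2A (-0.58) fell, and CDK1 (0.07) was not called. In DNA replication 24 of 44 were higher and 4 lower, with a median of 0.37. The chromatin assembly subunits CHAF1A (0.94) and CHAF1B (0.90) and the polymerase POLE (0.93) rose, while RFC3, of the clamp loader, had 23.2, 17.9 and 21.3 CPM in the KO libraries, against 53.4, 51.5 and 54.1 CPM in the NC libraries and fell (-1.30, SE 0.09). At the centrosome and cilium 22 of 36 were lower and 3 higher (26 and 2 without adjustment), with a median of -0.51. CEP290, of the ciliary transition zone, had 7.08, 5.05 and 5.78 CPM in the KO libraries, against 18.6, 15.7 and 19.4 CPM in the NC libraries (-1.49, SE 0.13). AKAP9, a scaffold of the centrosome and Golgi, had 18.2, 13.03 and 16.99 CPM in the KO libraries, against 46.4, 40.03 and 48.9 CPM in the NC libraries (-1.22, SE 0.11). Neither overlapped. The median gene span of this list was 82.4 kb, against 26.5 kb for all genes with a span. Adjusted medians of other lists of long span differed in sign. Receptor tyrosine kinases, at 85.4 kb, had 0.36, matrix genes, at 75.2 kb, 0.45, and integrins, at 82.0 kb, 0.06. Ubiquitin-specific proteases, at 71.8 kb, had -0.12, and chromatin remodellers, at 125 kb, -0.35. The part of span in these medians was not tested. Of 30 homologous recombination and checkpoint genes 9 were higher and 13 lower, with ATM (-0.92) and RBBP8 (-1.002) lower and XRCC3 (0.81) higher. Of 29 kinetochore genes 10 were higher and 6 lower (10 lower without KO replicate 1). Among all genes 29.9% were called higher and 22.2% lower with adjustment, and the kinetochore counts lay near these shares.

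Promoters of CDC20, PLK1 and ESPL1 are shown as members of the mitotic list that rose and that hold the letters TTTGAA, the cell cycle element bound by the MuvB complex; 15.2% of all promoters in the table hold them on either strand. RefSeq promoters were found for 25 of the 32 members, under 80%, so no share is read for the list. The letters also stand in the promoters of KIF11, ECT2 and TOP2A, which fell, and of CDK1, which was not called. The capitals mark TTTGAA or its reverse complement TTCAAA. CDC20 is at chr1:43358731-43359030 with 2 matches, the first 178 bases before the start, PLK1 at chr16:23678639-23678938 with 1 match 29 bases before it, and ESPL1 at chr12:53268049-53268348 with 1 match 31 bases before it, all on the plus strand.
CDC20 promoter: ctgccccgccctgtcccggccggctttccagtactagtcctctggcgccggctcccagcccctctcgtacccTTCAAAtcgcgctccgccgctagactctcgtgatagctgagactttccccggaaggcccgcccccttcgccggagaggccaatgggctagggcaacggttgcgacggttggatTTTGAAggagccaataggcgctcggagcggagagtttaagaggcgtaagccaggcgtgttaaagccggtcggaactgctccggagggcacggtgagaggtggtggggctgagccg
PLK1 promoter: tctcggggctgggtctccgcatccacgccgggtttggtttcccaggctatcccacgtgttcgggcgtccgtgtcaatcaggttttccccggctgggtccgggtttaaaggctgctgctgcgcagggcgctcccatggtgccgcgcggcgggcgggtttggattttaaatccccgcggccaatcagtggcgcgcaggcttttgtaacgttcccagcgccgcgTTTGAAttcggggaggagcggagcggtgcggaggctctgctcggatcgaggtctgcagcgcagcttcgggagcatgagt
ESPL1 promoter: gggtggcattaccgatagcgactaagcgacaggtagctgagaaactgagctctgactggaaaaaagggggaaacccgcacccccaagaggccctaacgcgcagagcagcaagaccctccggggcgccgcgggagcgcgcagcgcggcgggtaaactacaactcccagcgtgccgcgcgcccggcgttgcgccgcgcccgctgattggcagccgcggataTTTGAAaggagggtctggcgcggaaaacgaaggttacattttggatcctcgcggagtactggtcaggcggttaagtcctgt

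In several lists of adhesion and growth factor signalling more members were called higher with length adjustment than without. The same held for all genes tested, of which 24.4% were called higher without adjustment and 29.9% with it. The shares of all genes called lower were 26.3% without and 22.2% with adjustment. Whether these lists moved more than other genes of like length was not tested. ITGB1, the common beta integrin subunit, had 140.2, 122 and 90.8 CPM in the KO libraries, against 337, 314 and 389 CPM in the NC libraries. KO libraries lay below NC in both fits (-1.45, SE 0.13, against -1.56). ITGAV, its alpha V partner, had 464, 285 and 358 CPM in the KO libraries, against 807, 793 and 820.2 CPM in the NC libraries; the log2 change was -1.13 without and -0.66 with adjustment (SE 0.11). MET, the receptor of hepatocyte growth factor, had 88.3, 65.2 and 70.7 CPM in the KO libraries, against 153, 144 and 156 CPM in the NC libraries (-1.01 without and -0.62 with adjustment, SE 0.09). All 3 fell in both fits with no overlap, and KO replicate 1 was the highest KO library in each. PTK2, which encodes the focal adhesion kinase, had 125, 103 and 108 CPM in the KO libraries, against 117, 115 and 112 CPM in the NC libraries; the groups overlapped, and its log2 change was 0.06 (SE 0.08, adjusted p = 0.592). Of 17 integrin subunits 4 were higher and 5 lower, and not all members fell: ITGB4, of hemidesmosomes, had 18.8, 24.1 and 25.3 CPM in the KO libraries, against 11.7, 15.04 and 14.6 CPM in the NC libraries and rose (0.99, SE 0.14). Of 45 focal adhesion genes 21 were higher and 6 lower (16 and 10 without adjustment). TLN1, the talin that links integrins to actin, had 519.9, 552 and 584 CPM in the KO libraries, against 387, 389 and 373 CPM in the NC libraries (0.94, SE 0.09), and LIMS1, the adaptor PINCH, had 18.6, 15.8 and 15.7 CPM in the KO libraries, against 33.5, 31.9 and 37.9 CPM in the NC libraries (-0.94, SE 0.10). TLN1 rose and LIMS1 fell, both apart from NC. With effective length offsets ITGB4 (0.61, adjusted p = 0.0666) and LIMS1 (-0.32, adjusted p = 0.0528) were no longer called. Laminins, collagens and other matrix genes were higher in 17 of 33 and lower in 1 (10 and 6 without adjustment; 14 and 3 with length bins), with a median of 0.45. COL5A1, a fibrillar collagen, had 45.1, 51.3 and 53.8 CPM in the KO libraries, against 29.02, 29.4 and 29.8 CPM in the NC libraries (1.30, SE 0.11). LAMB3, a laminin of basement membranes, had 7.45, 8.46 and 9.42 CPM in the KO libraries, against 3.35, 3.46 and 2.73 CPM in the NC libraries (1.62, SE 0.15). No KO library fell into the NC range. Receptor tyrosine kinases were higher in 15 of 27 and lower in 2 (10 and 7 without), with EPHA2 at 386, 412 and 453 CPM in the KO libraries, against 256, 275 and 249 CPM in the NC libraries (0.92, SE 0.09) and AXL at 0.63; MET and RYK were the 2 that fell.

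Below the receptors, lists held members called in both directions, as do all genes (29.9% higher and 22.2% lower). In TGF-beta and BMP signalling 15 of 36 were higher and 10 lower with adjustment, against 11 and 13 without. SMAD5, which carries BMP signals, had 70.7, 49.03 and 67.2 CPM in the KO libraries, against 210.3, 203 and 209 CPM in the NC libraries. It fell with no overlap (-1.44, SE 0.11), and SKIL, a repressor of SMADs, fell too (-0.92). In PI3K, AKT and mTOR signalling 15 of 28 were higher and 9 lower (13 and 11 without adjustment). The lower members included the catalytic subunits PIK3CA (-1.11) and PIK3CB (-1.02). In the RAS and MAPK cascade 10 of 29 were higher and 11 lower (10 and 14 without adjustment). Epithelial genes numbered 6 of 28 higher and 9 lower (5 and 10 without adjustment, 4 and 13 with length bins). Mesenchymal genes numbered 9 of 21 higher and 5 lower, but 6 and 7 without adjustment and 6 and 6 with length bins. The repressor of epithelial genes ZEB1 had 7.45, 5.68 and 6.49 CPM in the KO libraries, against 21.5, 17.98 and 24.5 CPM in the NC libraries and fell (-1.34, SE 0.12), while OCLN, a tight junction protein, had 63.9, 48.5 and 49.8 CPM in the KO libraries, against 99.4, 97.9 and 103 CPM in the NC libraries and also fell (-0.79, SE 0.10). Each of these genes was lower in all KO libraries.

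Several families had more lower than higher members, some only without length adjustment. Of 462 numbered zinc finger genes 178 were lower and 91 higher with adjustment (196 and 65 without), with a median of -0.21; ZNF326, of the DBIRD complex, had 9.38, 5.68 and 6.12 CPM in the KO libraries, against 23.9, 18.3 and 23.1 CPM in the NC libraries (-1.51, SE 0.16). Chromatin remodellers were lower in 14 of 25 and higher in 1 without adjustment, but lower in 12 and higher in 8 with it (5 higher without KO replicate 2 or NC replicate 2). ATRX, a remodeller of heterochromatin, had 35.6, 26.4 and 29.5 CPM in the KO libraries, against 92.6, 77.1 and 99.8 CPM in the NC libraries (-1.56 without and -1.18 with adjustment, SE 0.10), and BAZ2A, of the nucleolar remodelling complex, had 72.7, 76.96 and 74.5 CPM in the KO libraries, against 47.8, 40.7 and 46.8 CPM in the NC libraries (0.73 and 1.17, SE 0.09). They are examples of opposite calls in 1 family. Histone lysine methylation enzymes turned with the adjustment, at 9 higher and 14 lower of 31 without it and 13 and 9 with it. Golgi coats and tethers were lower in 14 of 29 and higher in 5 (15 and 2 without; 8 higher without KO replicate 1 and 3 without KO replicate 3). GOLGB1, the tether giantin, had 12.8, 10.5 and 10.2 CPM in the KO libraries, against 39.1, 36.001 and 43.7 CPM in the NC libraries (-1.28, SE 0.09), and TRIP11, the tether GMAP-210, had 9.81, 6.76 and 9.16 CPM in the KO libraries, against 21.6, 22.1 and 24.02 CPM in the NC libraries (-1.31, SE 0.12). All KO libraries of both lay below NC. Ubiquitin-specific proteases were lower in 19 of 47 and higher in 12 (22 and 9 without adjustment). Pseudogenes were lower in 119 of 398 and higher in 25, and reads from parent genes can fall on them.

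**Figure D4:**
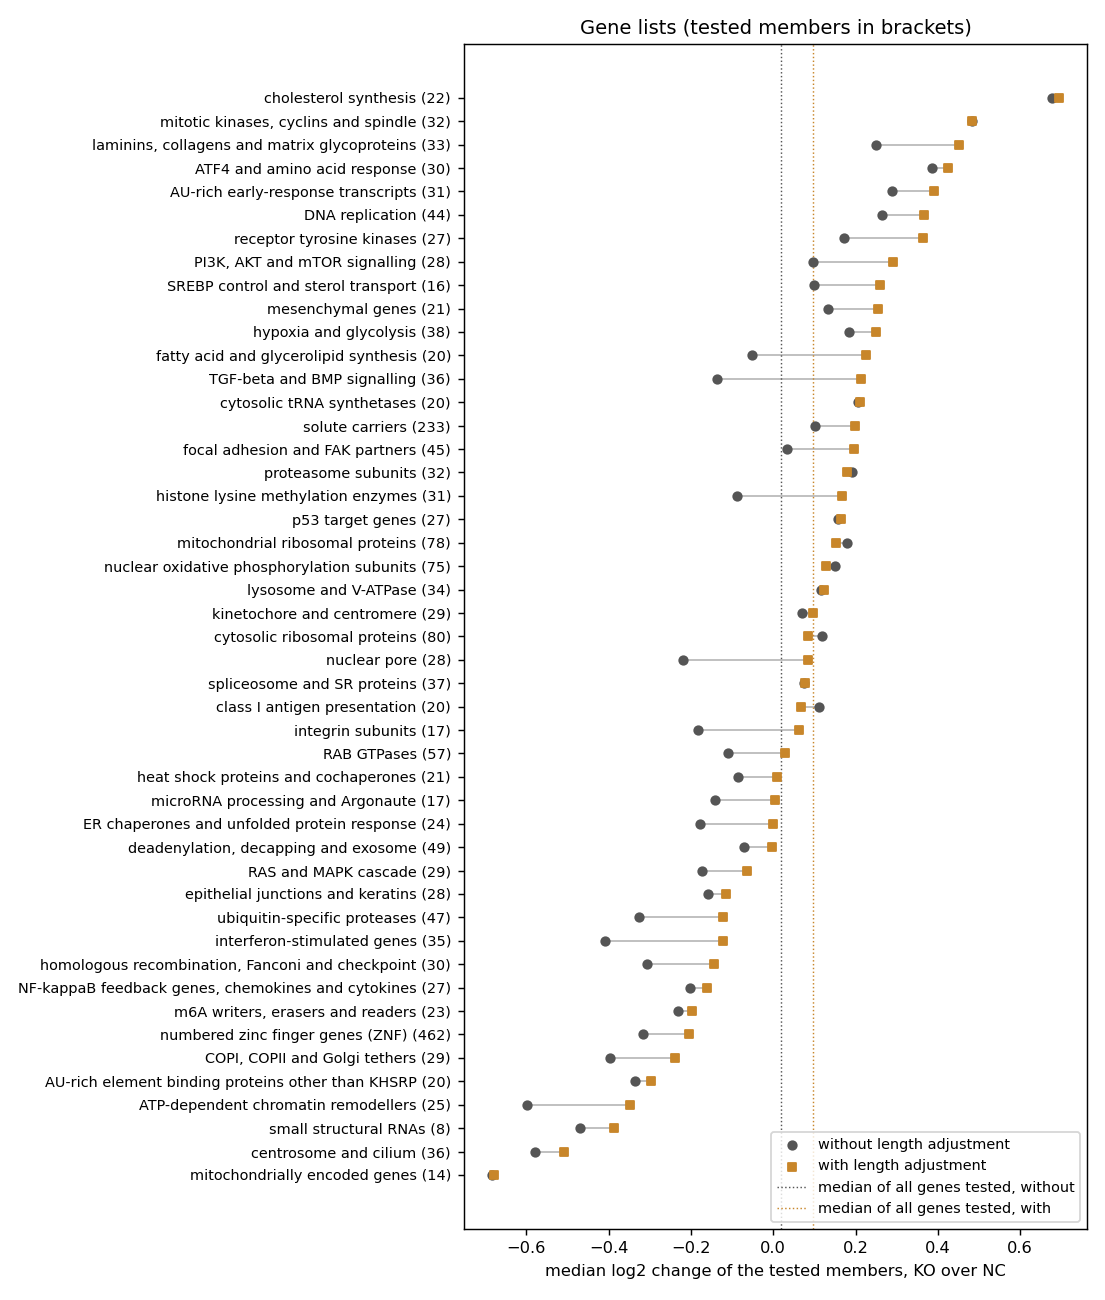
Median log2 change of KO over NC of the tested members of the gene lists, without (circles) and with (squares) length adjustment; dotted lines are the medians of all genes tested, 0.02 and 0.10. Cholesterol synthesis lies highest at 0.69 with adjustment and mitochondrially encoded genes lowest at -0.68; lists of long transcripts move to the right with adjustment.

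Mitochondrially encoded genes were lower in 10 of 14 and higher in 0, with a median of -0.68 (6 lower without KO replicate 2; at an unadjusted p under 0.05 edgeR gave 0 higher, and DESeq2 with adjustment gave 0). MT-CO1, which held most of the list's counts, was not among them: it had 4275, 4391 and 4207 CPM in the KO libraries, against 4289, 3325 and 4417 CPM in the NC libraries, and its log2 change of 0.09 was not called (adjusted p = 0.483). Several members called lower had only a few CPM on average. MT-ND4L had 2.24 in KO and 7.29 in NC, MT-ND3 3.01 and 4.91, and MT-ATP6 4.54 and 7.66. Why members of this list differ so widely in level was not tested. MT-ND4 had 18.1, 14.8 and 15.8 CPM in the KO libraries, against 52.1, 37.8 and 66.8 CPM in the NC libraries. The KO libraries were close together and the NC libraries spread widely, yet the groups stayed apart (-1.72, SE 0.17). Nuclear genes of oxidative phosphorylation were higher in 23 of 75 and lower in 3, beside 29.9% and 22.2% of all genes, and this count moved with single libraries and with the centring. Without KO replicate 1 it was 42 higher and 7 lower, without KO replicate 3, NC replicate 1 or NC replicate 3 it was 11, 10 and 9 higher, and with length bins it was 7 higher and 11 lower. Mitochondrial ribosomal proteins had 28 of 78 higher and 8 lower, against 15 and 14 with length bins; without KO replicate 1 there were 42 and 15, without KO replicate 3 there were 19 and 4, without NC replicate 1 there were 17 and 5, and without NC replicate 3 there were 15 and 5. Cytosolic ribosomal proteins were higher in 11 of 80 and lower in 6, but 46 were higher without KO replicate 1. Without KO replicate 3, NC replicate 1 or NC replicate 3 there were 7, 5 and 4 higher, and with length bins 5 were higher and 13 lower. Solute carriers were higher in 95 of 233 and lower in 39 (79 and 52 without adjustment). Hypoxia and glycolysis genes were higher in 20 and lower in 7 of 38 (4 lower without NC replicate 2), and p53 targets in 11 and 4 of 27 (7 higher without NC replicate 1). Of the other lists, proteasome subunits were higher in 14 and lower in 3 of 32 (9 lower without KO replicate 1 and 9 higher without NC replicate 3), and heat shock proteins in 7 and 2 of 21 (6 lower without KO replicate 1). Spliceosome genes were higher in 12 and lower in 7 of 37 (7 higher without NC replicate 1 or 3). Nuclear pore genes were higher in 10 and lower in 8 of 28, but 7 and 12 without adjustment, with medians of 0.08 and -0.22. RAB GTPases were higher in 17 and lower in 19 of 57 (14 and 23 without adjustment). Lysosomal genes were higher in 9 and lower in 7 of 34 (16 higher without KO replicate 1), and class I antigen presentation genes in 5 and 2 of 20 (8 higher without KO replicate 1). With length bins spliceosome genes were at 7 higher and 9 lower and nuclear pore genes at 5 and 8. Small structural RNAs, which carry no poly(A) tail, were lower in 5 of 8 and higher in 0 (at an unadjusted p under 0.05 0 higher, and by DESeq2 0), and their share of counts was smaller in KO, as given above; RMRP had 3295, 4329.9 and 3642 CPM in the KO libraries, against 6598, 5913 and 5899 CPM in the NC libraries (-0.57, SE 0.08).

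The deposited tables also give, for each gene and library, a transcript length averaged over its isoforms by their estimated abundance. It is a model estimate, and since the counts of KO and NC libraries also depended differently on length, the part of that difference in a change of this average was not tested. Of 13750 genes with a limma test of this length, 64 (0.465%) were longer in KO and 571 (4.15%) shorter, and 150 of the shorter but 6 of the longer differed by at least 0.5 on the log2 scale. These counts are less firm than those of levels. Leaving out 1 library gave 16 to 30 longer and 189 to 371 shorter genes, and with the replicate number as a block 3 and 61 passed. PAFAH1B1, the dynein regulator LIS1, had a mean length of 1459, 1517 and 1337 bases in the KO libraries, against 3961, 3772 and 3745 bases in the NC libraries. The KO libraries were all far shorter, with no overlap (log2 difference -1.41, SE 0.05, adjusted p = 0.00239). ABI2, of the WAVE complex, had 3309.5, 3200.5 and 2739 bases in the KO libraries, against 8305, 7639 and 7857 bases in the NC libraries (-1.37, SE 0.08). PALS2, a polarity scaffold, had 1997, 1849.8 and 1797 bases in the KO libraries, against 5483, 4455 and 5288 bases in the NC libraries (-1.43, SE 0.09). In each gene the shortest NC value exceeded the longest KO value. AGO2, the slicing Argonaute, had 4064, 3377 and 3542 bases in the KO libraries, against 9039, 8731 and 9106 bases in the NC libraries (-1.30, SE 0.07), while its TPM, which is scaled to that length, was 8.61, 9.19 and 9.22 in the KO libraries, against 2.49, 2.57 and 2.69 in the NC libraries and its log2 change in counts was 0.20 without and 0.69 with adjustment. ZNF780B, at -1.31, is a near copy of ZNF780A. In the other direction FUBP1, a KHSRP paralog, had 1812, 1925 and 1948 bases in the KO libraries, against 1443, 1362 and 1432 bases in the NC libraries (0.42, SE 0.04), and WDR33, of the polyadenylation complex, had 6681, 7057 and 7247 bases in the KO libraries, against 5351, 5555 and 5079.7 bases in the NC libraries (0.39, SE 0.05). Both were longer in every KO library. Genes with a shorter length were also lower in level more often: of the 571, 350 (61.3%) were called lower with adjustment and 65 (11.4%) higher, against 22.6% and 32.4% of all 13750. When counts were offset by the deposited effective lengths, 208 of the 571 (36.4%) were lower and 116 (20.3%) higher, against 23.2% and 20.9% of all 13750, so the counts depend on which length is used.

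**Figure D5:**
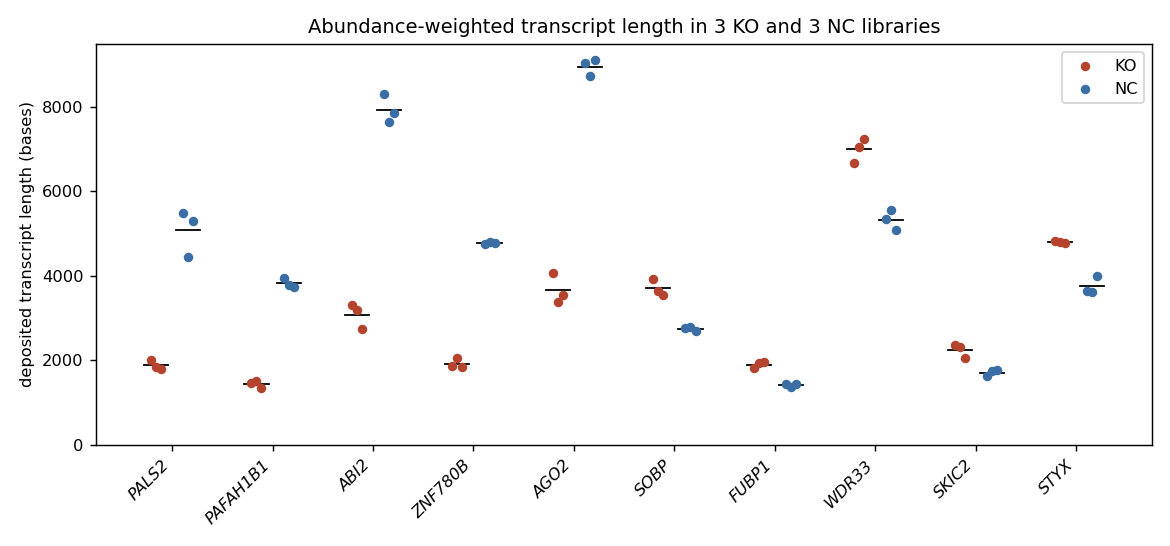
Deposited abundance-weighted transcript length in bases for the 5 genes with the largest fall and the 5 with the largest rise among called genes, with 3 KO libraries (left of each pair) and 3 NC libraries (right); bars are means. In the left 5 genes all KO libraries lie below all NC libraries, and in the right 5 genes above them.

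The libraries labelled KO and NC at 0 h of the actinomycin D set (2 each) gave a side comparison outside the 6 libraries. KHSRP had 132 and 142 CPM in the 0 h libraries labelled KO, against 429 and 440.4 CPM in those labelled NC. At 0 h 5854 of 15625 genes (37.5%) were called higher and 5515 (35.3%) lower in the libraries labelled KO. Of 3591 genes higher at steady state in both fits and tested at 0 h, 1403 (39.1%) were higher and 1407 (39.2%) lower there, against 40.4% and 34.4% of all 13470 shared genes. Of 2984 genes lower at steady state, 913 (30.6%) were lower and 1352 (45.3%) higher at 0 h. The Spearman correlation of the 2 sets' log2 changes over the 13470 shared genes was -0.05 without and -0.04 with length adjustment at steady state. The 0 h fit had no length adjustment. TGFBR1 and OLR1 fell in both sets, at -1.43 and -3.06 at 0 h on the log2 scale, and LIPG, ARID3B and FHL1 were higher in both, with 0 h values of 1.93 for ARID3B and 1.54 for FHL1. The sterol genes LSS and DHCR7 were lower at 0 h (-0.56 and -1.05), opposite to the steady state.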

How the data were processed

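RNA of PANC-1 cells, labelled as polyA, was sequenced in 3 KO and 3 NC libraries, and groups were taken from the labels. Small structural RNAs, which carry no poly(A) tail, took 11.4 to 15.8% of counts, a share at odds with a polyA label. How the RNA was selected was not tested. The authors deposited RSEM expected counts, TPM and transcript lengths per gene; per the submitters' processing notes STAR, RSEM and hg19 were used, without versions. No source used here names the annotation. Of 58037 identifiers 56948 had a symbol in the reference table, and 45 pseudoautosomal copies were added to their partners. Of the non-zero expected counts 23.9% were not whole, and they were rounded. For the 0 h set the deposited gene counts were used.

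Genes were filtered with filterByExpr, scaled by TMM and tested with the robust quasi-likelihood test of edgeR 4.0.16 (R 4.3.3), with Benjamini-Hochberg adjustment at 0.05 over all genes tested. The length-adjusted fit added offsets from a natural cubic spline (5 degrees of freedom), per library, of the log2 CPM deviation (prior count 2) on log2 mean transcript length. This can remove a real change that follows length. The length column was tested with limma 3.58.1 on the log2 scale. DESeq2 1.42.0 was an alternative. Scripts ran in Python 3.11.15 and were tested on simulated data. Intervals were not given for shares, and counts without molecular identifiers are not independent molecules.

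The text names KHSRP, ITGB1, ITGAV, MET, PTK2 and TGFBR1, the 15 genes in each direction described in the report, up to 4 members of each list by size of adjusted change, and 5 genes in each direction for the length column; further members were named after their values were seen, to show the rest of a list. The members and lists were chosen with earlier results of these data known. Same-numbered libraries did not deviate together (correlations of 0.0594, -0.0121 and -0.110 at steady state), so replicate numbers were not taken as pairs. No 2 replicates agreed within sampling noise. A few genes and 1 gene list are not reported here. Medians per library use log2(CPM + 2), with a pseudocount of 2 CPM.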

Additional observations from a re-analysis of the deposited data

Results flagged for a closer look

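A set of named genes moved in opposite directions in every library of the steady-state and the 0 h sets; the difference between the sets was not tested. On the log2 scale at 0 h, in libraries labelled KO over those labelled NC, ITGB1 was at 0.66 and ITGAV at 1.51, while both fell at steady state. ZNF780A, at 3.59, and TBC1D8B, at 1.39, also fell at steady state. MVD was at -0.71, PPP1R15A at -1.23 and KLHDC3 at -0.79 at 0 h, and all 3 rose at steady state. The 0 h libraries held 19177934 to 23215965 counts, fewer than those at steady state. Their fit had no length adjustment, and its median log2 change was -0.06 for the shortest group of transcripts and 0.19 for the longest. At steady state without adjustment these medians were 0.14 and -0.36. The parts of depth and of transcript length in the difference were not tested.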

How the results depend on the processing

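Counts of genes called at steady state stayed within 1.5 times the main count under every alternative run. Without length adjustment the alternatives gave 2960 to 4991 higher and 3729 to 5159 lower genes when 1 library was left out, and 3219 and 3960 with effective length offsets. With adjustment, leaving out 1 library gave 4042 to 6075 higher and 3165 to 4374 lower. At 0 h leaving out 1 library gave 5366 to 5574 higher and 5082 to 5279 lower; 1 label then has 1 library, assumed to vary like the other label's, so this range says little of stability. The counts for transcript length moved: with the replicate number as a block 3 genes were longer and 61 shorter, and leaving out 1 library gave 16 to 30 longer and 189 to 371 shorter. For levels the block gave 4048 higher and 4658 lower without adjustment and 5280 and 4066 with it. The numbers are not pairs, and the block is shown for completeness.

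Named genes turned direction in 3 cases, none called under the alternative. PTK2 was at -0.026 with length bins and between -0.105 and 0.014 unadjusted when 1 library was left out (above 0 without KO replicate 2), and RPL22 was at 0.10 unadjusted with effective length offsets. The cause was not tested. Among gene and setting pairs 5322 kept direction and side of the threshold, 101 lost the call and 8 gained it. List medians moved by more than the replicate spread in 171 of 1196 cases, most often with length bins (36 of 48 lists). The precision is limited by 3 libraries a group, and genes of a few counts are least certain.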
